A study of Capra aegagrus with 10 samples.

Results

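The comparison described here sets goat mammary gland cells with a knockdown of the long noncoding RNA lncRNA55666 against cells that the labels call Blank, by the read counts of their miRNAs. Known miRNAs (with the goat prefix) and predicted miRNAs (novel_mir identifiers) were included when they reached 5 CPM (counts-per-million of the miRNA reads) in at least 2 of the 4 libraries compared. This gave 339 miRNAs, 209 known and 130 predicted, out of 1403 miRNAs and 2233 small RNA identifiers in the table. The study sequenced small RNA from 10 libraries, 2 in each of 5 groups. All groups came from mammary gland cells of the Lanshan dairy goat, and per the series description the cells were grown in 3D culture. The knockdown group (KD553, n = 2) received a virus that inhibits lncRNA55666. No virus is named for Blank (n = 2), and 3NC (Lv3NC, n = 2) is the control listed beside the knockdown. The age of the animals, the number of animals or cultures behind a group and the level of lncRNA55666 itself were not analysed here. The labels do not say that the 2 libraries of a group came from separate cultures, so p-values measure the spread between these libraries only, which may be technical. KD553 and Blank differ both in the virus and in the knockdown, and in this comparison those cannot be told apart. Lv3NC values are therefore given beside many of the results.

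A miRNA is cut as a short duplex from a hairpin precursor, and the strand that enters an Argonaute protein guides it to messenger RNAs that pair with its seed, which lowers their translation and stability. Families share a seed and so share many targets. In the mammary gland, miRNAs are best known for roles in milk fat synthesis, in epithelial differentiation and in the remodelling of the gland, and a long noncoding RNA that carries matching sites can bind miRNAs in the cytoplasm.

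The 4 libraries held 5074525 and 8739602 miRNA reads in Blank and 5673073 and 3963712 in KD553, so that 1 CPM stood for 3.96 to 8.74 reads before TMM scaling. KD553 replicate 2 stood apart from its partner. The median gap between the KD553 libraries was 0.75 on the log2 scale over the 339 miRNAs, against 0.53 between the Blank libraries, and the gap between the group means was 0.74. Over the 448 miRNAs fitted, Blank replicate 2 and KD553 replicate 1 had a Pearson r of 0.951 across miRNAs, above the 0.933 of the Blank pair and the 0.935 of the KD553 pair. The sample descriptions number the KD553 columns differently from the sample titles, and columns were matched by title, which leaves the group unchanged.

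The labelled mammary origin was compared with marker miRNAs. The epithelial list (miR-200 family, miR-141, miR-429 and the miR-183 cluster) had 8 identifiers with a summed level of 15.2 and 10.1 CPM in Blank and 9.82 and 85.3 CPM in KD553. The 9 stromal and smooth muscle identifiers (miR-143, miR-145, miR-199a, miR-199b and miR-214) summed to 20933 and 20278 CPM in Blank and to 18096 and 11770 CPM in KD553. By these miRNAs the cells had little of the epithelial signature and much of the stromal one in both groups, and none of the identifiers was at 0 over the 4 libraries. Blood cell identifiers (6) summed to 237 and 346 CPM in Blank and to 600 and 2124 CPM in KD553. In bulk RNA, fewer cells of a type and less of its RNA per cell cannot be told apart.

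1 of the 448 fitted miRNAs passed an adjusted p of 0.05 between KD553 and Blank (0.223%), and it was a member, miR-328-3p, which rose. At an unadjusted p under 0.05 there were 39 of 448 (8.71%), of which 14 had higher and 25 lower values in KD553. Among the 339 members there were 34 such miRNAs, 13 higher and 21 lower. Both KD553 libraries lay above both Blank libraries for 67 members, against 74 of the 448 fitted (16.5%), and below both for 89 members, against 117 of the 448 (26.1%). Most fitted miRNAs are members, and shares this near the background are not a result about the members. The median log2 fold change was -0.08 over the members and -0.20 over all fitted miRNAs, with 163 members higher and 176 lower. Known members had a median of 0.10 (116 higher, 93 lower) and predicted members a median of -0.53 (47 higher, 83 lower). With all reads in the table as the library size, 11 miRNAs passed, 1 higher and 10 lower, and the median of all fitted moved to -0.73. The lowest adjusted p after that of miR-328-3p was 0.497 (limma), so each miRNA named in the following paragraphs is given by its values and not as a change.

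**Figure D1:**
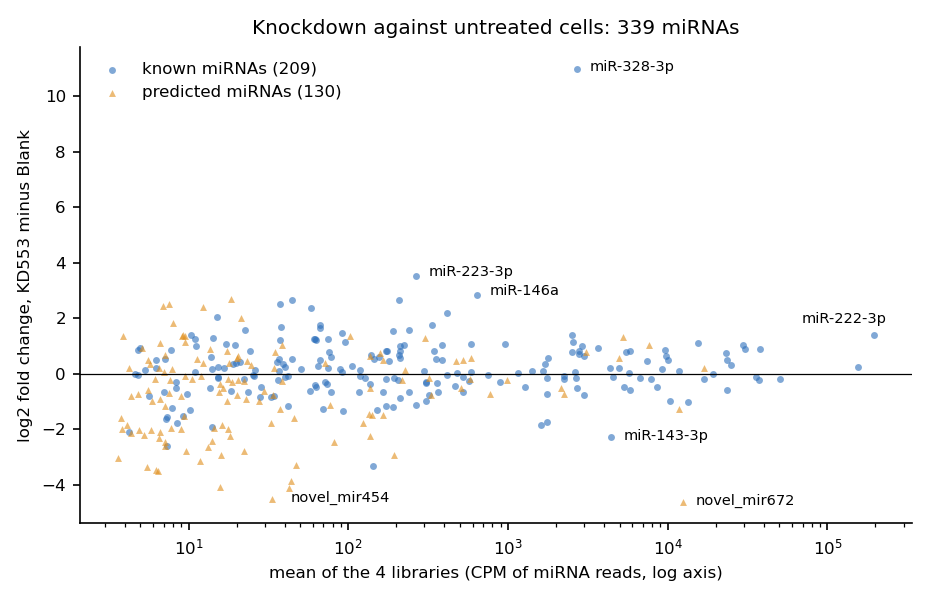
Log2 fold change of KD553 minus Blank (vertical axis) against the mean level in the 4 libraries (horizontal log axis, CPM) for 209 known miRNAs (circles) and 130 predicted miRNAs (triangles). miR-328-3p lies alone at 10.99, and many predicted miRNAs of low level lie below 0.

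miR-328-3p, a miRNA known in human cells to bind the RNA-binding protein hnRNP E2 as well as messenger RNAs, had 10 reads in each Blank library and 38163 and 10115 reads in the KD553 libraries. Its level was 1.79 and 1.01 CPM in Blank and 7804 and 2954 CPM in KD553, a log2 fold change of 10.99 (SE 0.70, limma adjusted p = 2.83e-05). With voom weights its adjusted p was 0.0562 and 0 miRNAs passed. The ratio of pooled reads, scaled to the miRNA reads, was 4513 with a 95% interval of 2922 to 7388 that covers counting error only. Neither KD553 library came near either Blank library.

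The same miRNA was at 13290 and 4697 CPM in Lv3NC and at 9328 and 19859 CPM in OV55666, the overexpression group, but at 1.64 and 0.33 CPM in Lv5NC, the control listed beside overexpression. Its log2 fold change between KD553 and Lv3NC was -0.72 (SE 0.70, limma adjusted p = 0.668). Its level was therefore as high in the Lv3NC libraries as in the knockdown libraries.

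The deposited table limits this result. The library totals behind the TPM columns exceeded the listed reads by 15214 and 59484 in the Blank libraries and by 0 and 0 in the KD553 libraries. The excess was 23416 and 43506 in Lv5NC and 1 and 21115 in OV55666. Totals could be computed for 8 libraries. The 4 with few miR-328-3p reads were all among the 5 with an excess above 1 read, and the exception was OV55666 replicate 2, which had both. When the excess of the Blank and Lv5NC libraries was counted as miR-328-3p, the Blank libraries came to 2722 and 5980 CPM, the log2 fold change was 0.25 (limma adjusted p = 0.87) and 0 miRNAs passed the threshold in limma, with 38 at an unadjusted p under 0.05. Which identifier the excess reads belong to was not tested.

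**Figure D2:**
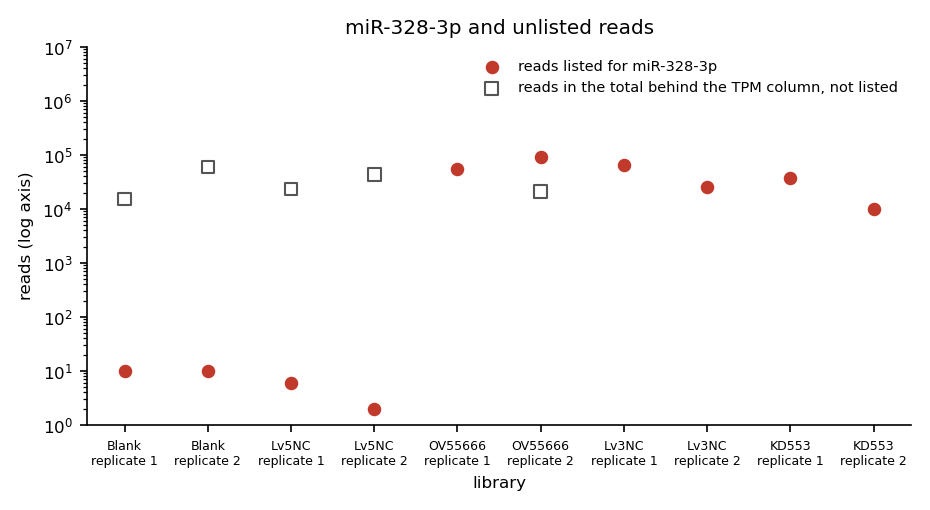
Reads listed for miR-328-3p (filled circles) and reads in the total behind the TPM column that no listed identifier holds (open squares), per library on a log axis. The Blank and Lv5NC libraries hold 2 to 10 listed reads and an excess of 15214 to 59484, whereas the KD553 libraries hold 38163 and 10115 listed reads and no excess. Totals were not computed for the Lv3NC libraries, and an excess of 0 or 1 is not drawn.

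Of the 30 miRNAs named by the smallest p at 50 CPM or more over the 10 libraries, 13 had higher and 17 lower values in KD553, and in 29 the groups did not overlap, against 191 of the 448 fitted. Selection by p favours such groups, so that count is a description only. The known miRNAs with higher values and close replicates were moderate in size. miR-320-3p, which mouse cells make without Drosha, was at 10016 and 9673 CPM in Blank and at 21046 and 20815 CPM in KD553, with 11420 and 14622 CPM in Lv3NC. Its log2 fold change was 1.09 (SE 0.40, limma unadjusted p = 0.0221). The Lv3NC libraries lay between the groups. The log2 fold change of miR-320-3p was 0.16 with all reads as the library size, where the median of all fitted was -0.73.

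miR-30a-5p, which represses the autophagy gene BECN1 in human cells, was at 1688 and 1488 CPM in Blank, 2041 and 2533 CPM in Lv3NC and 3296 and 3712 CPM in KD553, a log2 fold change of 1.14 (SE 0.51). miR-500-5p was at 34.1 and 29.3 CPM in Blank and at 106 and 97.0 CPM in KD553, with 41.0 and 53.0 CPM in Lv3NC and a log2 fold change of 1.65 (SE 0.67). In both, every KD553 library exceeded every Blank and Lv3NC library. Their log2 fold changes were 0.21 and 0.70 with all reads as the library size.

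miR-18a-3p, the 3p arm of a miR-17-92 member and here more abundant than its 5p arm, was at 38.1 and 37.1 CPM in Blank and at 81.8 and 93.5 CPM in KD553, but Lv3NC was as high, at 65.1 and 113 CPM. miR-342-5p and miR-342-3p, which come from an intron of the EVL gene in mammals, had log2 fold changes of 1.03 (SE 0.46) and 0.92 (SE 0.46). In KD553 they were at 549 and 487 CPM and at 3884 and 5713 CPM. Lv3NC, at 291 and 591 CPM and at 2674 and 4124 CPM, overlapped KD553 in both. Of the predicted miRNAs, novel_mir4 was at 2326 and 3776 CPM in Blank and 8206 and 6718 CPM in KD553 (log2 fold change 1.32, SE 0.45). novel_mir598 was at 66.0 and 49.5 CPM in Blank and 136 and 158 CPM in KD553 (1.34, SE 0.46). For both predicted miRNAs KD553 and Blank did not overlap. In Lv3NC novel_mir4 was at 3758 and 4665 CPM, below both KD553 libraries. novel_mir598 was at 112 and 141 CPM in Lv3NC, which overlapped KD553. Scaling by all reads gave log2 fold changes of 0.26 for miR-18a-3p, 0.10 for miR-342-5p and -0.01 for miR-342-3p. It gave 0.40 for novel_mir4 and 0.41 for novel_mir598.

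Lower values were seen most in predicted miRNAs. novel_mir672, an abundant predicted miRNA, was at 43280 and 5309 CPM in Blank, 20453 and 2462 CPM in Lv3NC and 1207 and 313 CPM in KD553. Its log2 fold change was -4.62 (SE 1.25, limma unadjusted p = 0.0056, adjusted p = 0.497). The Blank libraries differed from each other by more than the lower of them differed from KD553 replicate 1, and both KD553 libraries lay below the rest.

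novel_mir454 was at 92.3 and 36.3 CPM in Blank and at 5.52 and 0 CPM in KD553 (log2 fold change -4.53, SE 1.24). It had 27 and 0 reads in KD553, under 5 CPM before TMM scaling, and so passed the filter through the Blank libraries alone. Its lower level in KD553 was therefore set in part by the filter. novel_mir19 was at 230 and 186 CPM in Blank, 186 and 138 CPM in Lv3NC and 65.0 and 79.4 CPM in KD553 (-1.51, SE 0.42). novel_mir2 was at 13292 and 19404 CPM in Blank and 10122 and 4427 CPM in KD553 (-1.26, SE 0.52). In Lv3NC novel_mir2 was at 17644 and 7515 CPM, which overlapped KD553. novel_mir1, the most abundant predicted miRNA over the 4 libraries, overlapped between groups, at 14422 and 17114 CPM in Blank and 19875 and 16482 CPM in KD553. Of novel_mir454, novel_mir19 and novel_mir2, the closest replicates in both groups were those of novel_mir19. novel_mir1102, novel_mir992 and novel_mir626, with log2 fold changes of -3.89, -4.12 and -3.30, had 0 reads in KD553 replicate 2 and Blank levels that differed between replicates (165 and 6.53, 127 and 31.0, and 162 and 9.15 CPM). novel_mir875 and novel_mir1319 had log2 fold changes of -1.80 and -1.62.

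Among known miRNAs, miR-143-3p, a miRNA of smooth muscle and fibroblasts, was at 8397 and 5478 CPM in Blank, 4860 and 707 CPM in Lv3NC and 3242 and 581 CPM in KD553 (log2 fold change -2.30, SE 0.97). miR-128-3p, enriched in brain in mammals, was at 289 and 189 CPM in Blank and at 104 and 105 CPM in KD553, with 205 and 152 CPM in Lv3NC (-1.15, SE 0.48). miR-424-3p, the 3p arm of a miR-15/16 family member and more abundant than its 5p arm over the 4 libraries, was at 394 and 419 CPM in Blank and 258 and 162 CPM in KD553 (-0.99, SE 0.41). The KD553 libraries lay below both Blank libraries in each.

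miR-99a-5p, which represses mTOR in human cells, was at 10329 and 17362 CPM in Blank and 8143 and 5469 CPM in KD553, and Lv3NC, at 4374 and 6023 CPM, overlapped KD553. miR-378-3p, from an intron of the PPARGC1B gene, was at 18908 and 16189 CPM in Blank and 12544 and 5949 CPM in KD553 (log2 fold change -1.02, SE 0.51). Lv3NC, at 15607 and 8425 CPM, overlapped KD553 for miR-378-3p. miR-345-5p, miR-1307-3p and miR-93-3p had log2 fold changes of -3.34, -1.73 and -1.29, and in all 3 KD553 replicate 2 was the lower knockdown library. miR-1307-3p, at 2573 and 2507 CPM in Blank and 1518 and 383 CPM in KD553, was at -0.74 without that library and -0.002 with the share of reads on RF identifiers (a class of reads outside the miRNAs) as a term. miR-93-3p, at 97.4 and 93.5 CPM in Blank and 66.0 and 22.2 CPM in KD553, was at -0.52 and -0.23 in those fits. miR-345-5p, at 464 and 70.7 CPM in Blank and 32.3 and 8.76 CPM in KD553, was at -1.99 without Blank replicate 1. In Lv3NC miR-345-5p was at 341 and 9.90 CPM, miR-1307-3p at 3096 and 795 CPM and miR-93-3p at 57.0 and 21.4 CPM. Lv3NC overlapped KD553 in all 3. The fit with the RF share gave -0.11 for miR-378-3p, -0.21 for novel_mir2, -0.23 for novel_mir875 and -0.33 for novel_mir1319. It gave -0.49 for miR-143-3p and -0.56 for miR-424-3p, but -3.30 for novel_mir672, -1.55 for novel_mir19 and -1.22 for miR-128-3p. 

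**Figure D3:**
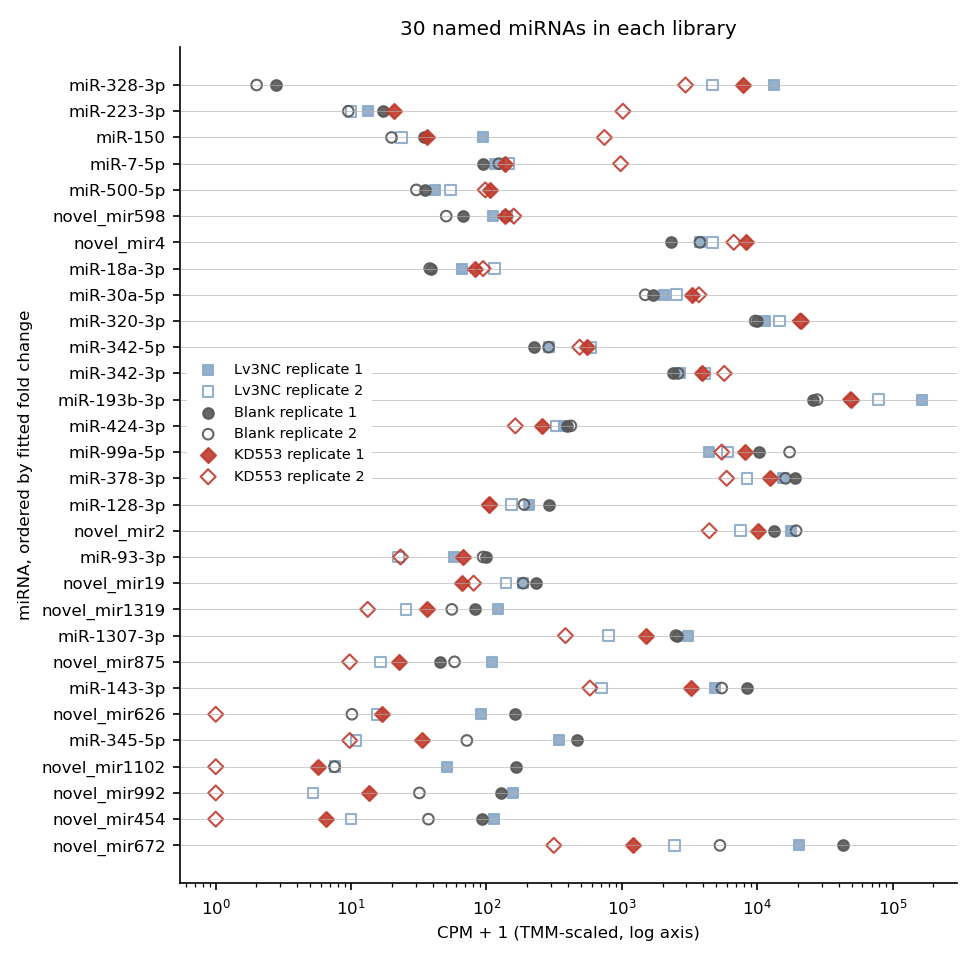
Level of 30 named miRNAs (CPM + 1, log axis) in each Blank (circles), Lv3NC (squares) and KD553 (diamonds) library, replicate 1 filled and replicate 2 open, ordered by fold change. Replicates lie close for miR-320-3p at 21046 and 20815 CPM in KD553 and far apart for miR-223-3p at 19.6 and 1018 CPM.

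The most abundant miRNAs were compared apart from the named ones. miR-222-3p, which represses the cell-cycle inhibitor CDKN1B in human cells, held the highest level, with 123974 and 93796 CPM in Blank, 244439 and 323197 CPM in KD553 and 273676 and 147185 CPM in Lv3NC. Its log2 fold change was 1.38 (SE 0.72, limma adjusted p = 0.497), with a 95% interval of -0.25 to 3.01. It was 0.45 with all reads as the library size. Both KD553 libraries exceeded both Blank libraries, and the Lv3NC range included the lower KD553 library.

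miR-193b-3p, which supports brown fat cell differentiation in mice, was at 25842 and 27766 CPM in Blank and at 49370 and 49168 CPM in KD553, a log2 fold change of 0.88 (SE 0.45). In Lv3NC it was higher, at 164310 and 78962 CPM. With all reads as the library size the log2 fold change between KD553 and Blank was -0.05. let-7b-5p, let-7a-5p, miR-423-3p, miR-99b-5p, miR-191-5p and miR-455-3p had log2 fold changes of 0.24, -0.21, -0.23, -0.11, 0.30 and -0.59, with SEs of 0.36 to 0.57. Together the 5 most abundant miRNAs took 41.0% and 41.8% of the miRNA reads in Blank and 52.3% and 49.1% in KD553.

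miR-21-5p, a miRNA induced in inflammation and in many tumours, was at 21085 and 12601 CPM in Blank and at 11891 and 75647 CPM in KD553. miR-92a-3p was at 4062 and 46917 CPM in Blank and at 52436 and 15223 CPM in KD553, and miR-92b at 30783 and 3205 CPM in Blank and 3416 and 56637 CPM in KD553. These 2 miRNAs share their seed and most of their bases, and a library high in the first was low in the second. Their sum was steadier, with 34845 and 50122 CPM in Blank and 55852 and 71860 CPM in KD553 (log2 fold change 0.60, SE 0.34). How the authors divided reads between the 2 names is not given in the sources used here, so either value alone is uncertain. The 3p arms of miR-199a, miR-199b and miR-199c are near-identical too, and summed to 3227 and 4254 CPM in Blank and 2458 and 1688 CPM in KD553 (-0.86, SE 0.41).

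KD553 replicate 2 carried a set of known miRNAs at levels that no Blank library and not its partner reached. miR-223-3p, a miRNA of myeloid blood cells, was at 16.3 and 8.54 CPM in Blank, 19.6 CPM in KD553 replicate 1 and 1018 CPM in replicate 2. miR-146a, which NF-kB induces and which represses TRAF6 and IRAK1 in human cells, was at 86.5 and 35.3 CPM in Blank and at 67.1 and 2363 CPM in KD553. miR-150, a lymphocyte miRNA, was at 33.8 and 18.9 CPM in Blank and at 35.6 and 743 CPM in KD553. In each case KD553 replicate 1 was within or just above the Blank range.

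miR-424-5p and miR-10a-5p were high in replicate 2 and below both Blank libraries in replicate 1, and miR-340-5p was within the Blank range there. Their levels were for miR-424-5p (47.4 and 44.6 CPM in Blank, 28.0 and 646 CPM in KD553), for miR-10a-5p (65.3 and 76.9, then 60.1 and 754 CPM) and for miR-340-5p (10.7 and 4.93, then 7.57 and 209 CPM). miR-7-5p was at 93.3 and 123 CPM in Blank and at 136 and 979 CPM in KD553. Without KD553 replicate 1, 9 miRNAs passed an adjusted p of 0.05, all higher. They were miR-328-3p, the 6 of this set other than miR-146a, miR-30b-5p and miR-146b-5p, of which miR-146b-5p is not a member. Without KD553 replicate 2, only miR-328-3p passed. That fit assumes that the remaining KD553 library varies like the other groups. KD553 replicate 2 also had 34 of 130 predicted members at 0 reads, against 4 in KD553 replicate 1 and 2 and 1 in the Blank libraries. It held the fewest miRNA reads of the 4 libraries and the highest share of reads on RF identifiers, at 26.3% against 16.2% in KD553 replicate 1. With the RF share as a term in the fit, the log2 fold change went from 3.50 to 0.66 for miR-223-3p, from 2.83 to -0.48 for miR-146a, from 2.65 to 0.71 for miR-150 and from 1.77 to 0.25 for miR-7-5p. Leaving out KD553 replicate 2 gave 0.68, 0.27, 0.48 and 0.35. This library had the highest RF share of all 10 libraries, so the 2 fits are not separate checks. They cannot tell the RF share from other traits of this library. The part of depth was not tested.

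**Figure D4:**
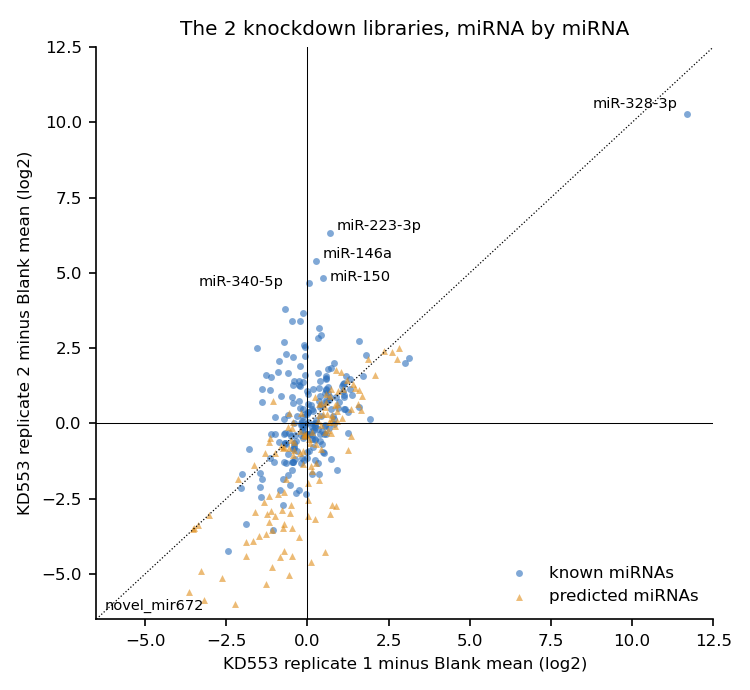
Log2 level of each of the 339 miRNAs in KD553 replicate 1 (horizontal) and replicate 2 (vertical), each minus the mean of the Blank libraries. The dotted line marks equal values. A group of known miRNAs including miR-223-3p and miR-146a lies high in replicate 2 alone, many predicted miRNAs lie low in replicate 2 alone, and miR-328-3p is high in both.

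The members were also grouped into 21 lists of families, clusters and marker miRNAs, which held 128 of the 339 members, 15 of them in several lists. The lists were matched by hairpin name, so that the let-7, miR-15/16, miR-29 and miR-30 lists, among others, hold both 5p and 3p arms. The arms of a hairpin differ in seed, so a list's count and median are not those of a seed family. Members are counted as higher or lower by the sign of the fitted log2 fold change. No list member passed the adjusted threshold, and miR-328-3p is in none of the lists. At an unadjusted p under 0.05 there were 5 of the 128 list members, against 39 of the 448 fitted (8.71%). All list members are known miRNAs, and that threshold was met by 10 of the 209 known and 24 of the 130 predicted members. The share in the lists was thus near that of the known members. The 5 were miR-18a-3p, miR-424-3p, miR-154b-5p, miR-143-3p and miR-223-3p.

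Of the families tied to cell growth, miR-221 and miR-222 had 3 of 3 members with higher values and a median log2 fold change of 1.03, which was 0.57 without KD553 replicate 2 or without Blank replicate 2 and 0.11 with all reads as the library size. The miR-17-92 cluster with its paralogs, a growth-promoting group, had 10 of 14 members higher and a median of 0.50. The miR-15/16 family, which represses cyclins and BCL2, had 5 of 8 higher and a median of 0.68, with miR-16b-5p, its most abundant member, at 9623 and 4602 CPM in Blank and 9986 and 14287 CPM in KD553. The let-7 family, which represses RAS and HMGA2, had 10 of 15 higher and a median of 0.15, and the miR-34 and miR-449 family, a p53 target group, 1 of 4 higher and a median of -0.31. miR-34a, the 1 with higher values, was at 5768 and 6640 CPM in Blank and 8109 and 8983 CPM in KD553, and Lv3NC at 6785 and 8111 CPM was close to both. Without KD553 replicate 2 the medians of the miR-17-92, miR-15/16 and let-7 lists were -0.15, -0.50 and -0.05. With all reads as the library size the signs of these 3 medians turned as well, to -0.31, -0.14 and -0.78, where the median of all fitted was -0.73.

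The miR-30 family had 7 of 8 members higher, a median of 0.97 and a summed level of 1806 and 1605 CPM in Blank, 2126 and 2624 CPM in Lv3NC and 3431 and 4092 CPM in KD553. Nearly all of this sum was miR-30a-5p. For 3 of the 8 members both KD553 libraries lay above both Blank libraries, against 74 of the 448 fitted (16.5%). The median was 0.49 without KD553 replicate 2 and 0.04 with all reads as the library size. The miR-29 family, which represses collagens and other matrix genes, had 4 of 4 higher and a median of 0.73, which was 0.27 without KD553 replicate 2 and -0.19 with all reads as the library size. Its leading member, miR-29a-3p, was at 3543 and 4510 CPM in Blank, 1752 and 3276 CPM in Lv3NC and 5864 and 7963 CPM in KD553 (log2 fold change 0.77, SE 0.48).

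The miR-181 family had 3 of 3 higher and a median of 1.29 (0.71 without KD553 replicate 2 and 0.35 with all reads as the library size), with miR-181b-5p at 5519 and 3126 CPM in Blank and 6788 and 7670 CPM in KD553 (0.80, SE 0.47). The miR-193 and miR-365 list had 3 of 4 higher and a median of 0.61, which was -0.31 with all reads as the library size. The miR-23/27/24 clusters had 2 of 8 higher (median -0.17), and miR-23b-3p, their most abundant member, was at 22154 and 16503 CPM in Blank and 21786 and 16527 CPM in KD553. The miR-99, miR-100 and miR-125 list had 3 of 10 higher (median -0.11). The HOX cluster miR-10 and miR-196 had 1 of 4 higher (median -0.21), with miR-196b at 402 and 441 CPM in Blank and 407 and 415 CPM in KD553, while miR-10b-5p was at 292 and 529 CPM in Blank and 211 and 255 CPM in KD553. The last 3 lists had medians within 0.10 of that of all fitted miRNAs.

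miRNAs reported to act in milk fat synthesis and lactation numbered 25 members, 15 higher and 10 lower, with a median of 0.17. For 4 of them both KD553 libraries lay above both Blank libraries and for 4 below, which is no more than over all fitted miRNAs (16.5% and 26.1%). The first 4 were miR-221-5p, miR-30e-5p, miR-17-5p and miR-27b-5p, with log2 fold changes of 1.03, 1.40, 0.76 and 0.28. The 4 below were miR-130a-3p, miR-130b-5p, miR-145-3p and miR-24-3p, at -0.81, -0.68, -0.65 and -0.75. miR-103-3p, which raises fat synthesis genes in goat mammary epithelial cells, was at 275 and 353 CPM in Blank and 315 and 609 CPM in KD553. miR-27a-3p, which lowers triglyceride in the same cells, was at 4264 and 1014 CPM in Blank and 781 and 4536 CPM in KD553. Both overlapped between groups. The list's median was -0.26 without KD553 replicate 2 and -0.71 with all reads as the library size.

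The innate response list had a median of 0.50, which lies between the values of miR-21-5p and miR-21-3p. Log2 fold changes were 2.83 for miR-146a, 0.88 for miR-21-5p, 0.12 (SE 0.93) for miR-21-3p and 0.004 (SE 0.49) for miR-155-5p. In all 4 members the groups overlapped. miR-155-5p, a miRNA induced in activated immune cells, was at 1089 and 1220 CPM in Blank and 1270 and 1053 CPM in KD553. Without KD553 replicate 2 the median of this list was -0.15.

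The imprinted DLK1-DIO3 cluster, a set of miRNAs expressed from the maternal chromosome, had 5 members with a median of -1.63, and 3 of them (miR-127-3p, miR-409-3p and miR-380-3p) entered the comparison through the Blank libraries alone, so that their lower level in KD553 was set in part by the filter. The count and median of this list are therefore no evidence of a direction. Their summed level was 59.5 and 80.5 CPM in Blank, 41.6 and 18.0 CPM in Lv3NC and 27.4 and 12.3 CPM in KD553. miR-154b-5p was at 18.2 and 26.7 CPM in Blank and 7.57 and 3.21 CPM in KD553 (log2 fold change -1.94, SE 0.77, limma unadjusted p = 0.0326, adjusted p = 0.497). miR-127-3p was at 15.7 and 11.7 CPM in Blank and 4.29 and 2.34 CPM in KD553. Of the 2 that also reached 5 CPM in KD553, miR-154b-5p had groups that did not overlap and miR-665 had groups that did. The median was -1.43 without KD553 replicate 2 and -1.67 with all reads as the library size. These miRNAs rest on few reads. Over all lists and unlisted miRNAs, 29 of the 339 members entered through the Blank libraries alone, against 4 through the KD553 libraries alone.

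Of the cell type markers, the stromal list had 2 of 9 higher by the fitted log2 fold change and a median of -0.32, which was -0.02 without KD553 replicate 2, -0.85 without replicate 1 and -1.15 with all reads as the library size. Its most abundant member, miR-214-3p, was at 4769 and 6512 CPM in Blank and 7332 and 4400 CPM in KD553. The blood list had 3 of 3 higher and a median of 2.65, which was 0.68 without KD553 replicate 2. The red cell miRNA miR-451-5p was at 186 and 317 CPM in Blank, 979 and 148 CPM in Lv3NC and 542 and 337 CPM in KD553. The epithelial list had 1 member, miR-200c, at 5.54 and 3.32 CPM in Blank and 2.25 and 33.6 CPM in KD553. The endothelial miR-126-3p was at 26.6 and 43.5 CPM in Blank and 46.0 and 40.6 CPM in KD553, and the 2 striated muscle members had a median of 0.52, with miR-133a-3p at 161 and 137 CPM in Blank and 355 and 192 CPM in KD553. The high value of the epithelial and 2 of the blood markers, as of miR-146a in the innate response list, came from KD553 replicate 2, and the part of other cell types in that library was not tested. The reference-type list, of miRNAs often used for normalisation, had 4 of 8 higher and a median of 0.07, which was -0.04 with TMM factors from all miRNAs, -0.31 with the miRNA total alone and -0.85 with all reads as the library size.

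The share of reads on RF identifiers was higher in both KD553 libraries (16.2% and 26.3%) than in both Blank libraries (15.4% and 10.7%). With the RF share as a term in the fit, the medians of the let-7, miR-17-92, miR-15/16, milk fat and innate response lists were -0.13, -0.21, -0.56, -0.22 and -0.61. Those of the miR-29, miR-30, miR-181 and blood lists were -0.03, 0.28, 0.23 and 0.71, and that of miR-221 and miR-222 was -3.97e-05. The DLK1-DIO3 median was -1.35, that of the stromal list -0.16, that of miR-193 and miR-365 0.71 and that of miR-23/27/24 0.11, against -0.02 over all members. The let-7, miR-17-92, miR-15/16, milk fat, innate response and miR-29 medians thus turned from above to below 0 in this fit. Since the RF share was highest in KD553 replicate 2, this fit is not a separate check from leaving that library out.

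**Figure D5:**
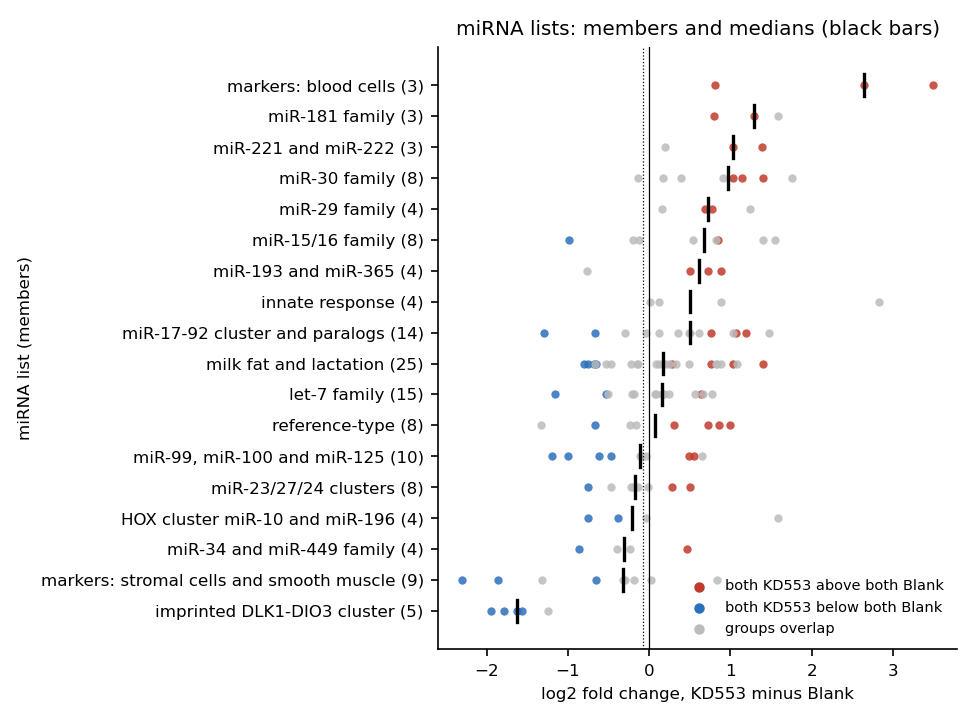
Log2 fold change of each member (points) and the median (black bar) for the 18 lists with at least 3 members. Red points have both KD553 libraries above both Blank libraries, blue points both below, and grey points overlap. The dotted line is the median of all 339 members at -0.08. The DLK1-DIO3 members lie at -1.25 to -1.94 (3 of the 5 entered through the Blank libraries alone), and the lists with the highest medians hold 3 members each.

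Predicted miRNAs made up a smaller part of the miRNA reads in KD553. The Blank libraries had 12.0% and 7.78% of their miRNA reads on them, the KD553 libraries 6.62% and 4.40%, and the Lv3NC libraries 9.97% and 6.57%. Without novel_mir672 the shares were 7.22% and 7.18% (Blank), 6.51% and 4.38% (KD553) and 8.27% and 6.35% (Lv3NC). The KD553 libraries lay below the Blank libraries in both counts, with an exact two-sided permutation p of 0.33 for the full share, the smallest that 2 against 2 libraries allow. Among the predicted members, 50 had both KD553 libraries below both Blank libraries and 22 above. Among the known members these numbers were 39 and 45, and over all 448 fitted miRNAs 117 (26.1%) and 74 (16.5%). The filter let in 29 members through the Blank libraries alone and 4 through the KD553 libraries alone. Counts below Blank are therefore set in part by the filter. KD553 replicate 2 had 34 of the 130 predicted members at 0 reads.

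Reads were absent more often in KD553. 50 of the 1403 miRNAs had reads in both Blank libraries and none in either KD553 library, 42 of them predicted, and 2 had the reverse. Only 4 of the 50 were members. Blank replicate 2 held the most miRNA reads of the 4 libraries, at 8739602, and the fewest reads in the table, at 19616447. The 4 members were novel_mir29, novel_mir796, novel_mir155 and novel_mir699, which were at least 35.1-fold, 28.9-fold, 29.6-fold and 20.5-fold lower in KD553 against a floor of 3 reads over the group. All 4 passed the filter through the Blank libraries alone, so their direction was set by that choice. The 2 arms of a hairpin did not keep to a direction. Of 62 hairpins with both arms among the members, 18 had both arms higher, 11 both lower and the rest arms of opposite sign. The members nearest to the 5 CPM limit were miR-26b-3p and miR-100-3p, each with a second-highest value of 5.05 CPM, and the nearest outside it was miR-200b at 4.93 CPM.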

How the data were processed

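Small RNA of 10 libraries was analysed, and the 4 KD553 and Blank libraries were compared. The authors deposited a table with a count column and a TPM column per library; per the file headers the counts are raw reads per identifier. Their unit was recorded as other, because 50.7% of the count cells hold a missing mark, read here as 0 (the smallest count is 1). The deposited TPM values are counts-per-million of a library total and were used for that total only. The sources used here do not give the aligner, the miRNA database or the genome build. 2 TPM columns, both named Lv3NC replicate 1, were not used.

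Reads were put on a CPM scale by the miRNA total and TMM factors (trim 30% and 5%, 448 miRNAs with 5 CPM in 2 of 10 libraries). Values of log2(CPM + 1) were fitted in R 4.3.3 with limma 3.58.1 (statmod 1.5.0) on 5 group means, an abundance trend and robust moderation (5 residual degrees of freedom). Fold changes are on that scale, which understates low miRNAs. Tests were two-sided with Benjamini-Hochberg adjustment over the 448 at 0.05. The plan preferred a count model if the columns passed as counts; they did not, and the planned limma fit was used. Tables were summarised with Python 3.11.15, pandas 2.3.3 and scipy 1.17.1. The fit was tested on simulated counts with the same dispersion for every miRNA and no outlying library. That does not show how it behaves where a library departs from its partner. The median SE of a member's log2 fold change was 0.70. Reads are not independent molecules, so intervals and floors describe counting error alone.

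Named miRNAs are those past the threshold (up to 15 in each direction), filled to 30 by smallest p at a mean of 50 CPM, the 10 most abundant, miR-328-3p, the leading and smallest-p member of each list and the 3 most abundant predicted miRNAs. Others, such as those high in KD553 replicate 2, were chosen after their values were seen. The members and lists were chosen with earlier results of these data known. Replicate numbers were not taken to pair the libraries. Sequences were not used here.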

Additional observations from a re-analysis of the deposited data

Results flagged for a closer look

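RF identifiers, a class of reads outside the miRNA comparison that the table does not pair with names, held 13.1% ± 3.30 (SD, n = 2) of the reads in the table in Blank and 21.2% ± 7.12 in KD553. The groups did not overlap, and the exact two-sided permutation p was 0.33, the smallest that 2 against 2 libraries allow. Predicted siRNAs took 7.07e-05% of the reads in Blank and 0.00227% in KD553 (exact two-sided permutation p = 0.33), from 23 and 10 reads in Blank and 785 and 247 in KD553.

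The totals behind the TPM columns of the Blank libraries exceeded the listed reads by 15214 and 59484, whereas the KD553 libraries had no such excess. These are the reads set beside miR-328-3p in the comparison.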

How the results depend on the processing

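The count of miRNAs past the threshold was 1. It was 1 with median-of-ratios scaling, a pseudocount of 5, a 50 CPM filter, the miRNA total without factors, the 4 libraries alone, known miRNAs only and a covariate for the RF share, and, added after the data were seen, with TMM factors from all miRNAs, no robust moderation and copies of a name summed. It was 2 with no filter, 11 (10 lower) with all reads as the library size, and 0 with voom weights (miR-328-3p adjusted p = 0.0562; 26 at an unadjusted p under 0.05) or with the excess reads given to miR-328-3p. Leaving out each library in turn gave 1 to 9, with 9 without KD553 replicate 1 and 3 without Blank replicate 1. In the latter the added miRNAs were miR-505-3p, with 1 read in Blank replicate 2, and miR-15b-5p. A replicate block gave 3, adding novel_mir672 (limma adjusted p = 0.0061) and novel_mir454. The latter entered the comparison through the Blank libraries alone. However, same-numbered libraries correlated in their deviations at -0.02 (KD553 with Blank) to 0.32, with 8 of 10 pairs over 0.1. Not every pair was over 0.1, so the numbers were not taken to pair the libraries. The cause of these moves was not tested.

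Of 554 values of the 30 miRNAs named by p under other settings, 2 reversed, both with all reads as the library size, namely miR-342-3p (-0.012) and miR-193b-3p (-0.050). Their side of the threshold says little about stability, since 29 of the 30 were far from it, and leaving out a library moved miR-223-3p between 0.68 and 6.31 and miR-7-5p between 0.35 and 3.18. Of the other 30 named miRNAs, 23 changed sign in at least 1 of 6 settings (each library left out, the RF share, all reads), such as miR-21-5p (-0.46 without KD553 replicate 2), miR-92a-3p (-0.73 without Blank replicate 1), let-7b-5p (-0.69 with all reads) and miR-200c (-0.71 without KD553 replicate 2). The median size of the 30 named fold changes was 1.57, and 0.90 with that covariate for the RF share. The intron share, 2.01 points lower in KD553 of all reads, was 6.11 points lower of non-miRNA reads. Summing miRNAs of identical mature sequence was not run, since no sequences were used. With 2 libraries a group and a median SE of 0.70, differences of modest size were not detectable.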
